A study of Caenorhabditis elegans with 64 samples.

Results

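Small RNAs of *simr-1* mutants were compared with those of wild-type animals after a single generation at 25°C, in whole *Caenorhabditis elegans* worms collected as day 1 adults. The comparison used the 4 small RNA libraries that the labels place at generation 1 and 25°C, 2 of the *simr-1(cmp36)* strain USC863 and 2 of the wild-type strain N2, of 64 libraries in the series. All of these animals had been plated as synchronized L1 larvae, and their small RNAs were selected by size and treated with a 5' polyphosphatase, so that triphosphorylated siRNAs could be ligated. The mutant is represented by 1 allele, and whole worms mix germline and somatic tissues. Further libraries of the series were used only to place these 4: *simr-1* and wild-type small RNAs grown at 20°C, or kept at 25°C for 2, 7 or 10 generations (2 libraries for each genotype), single small RNA libraries of *simr-1*, *mut-16*, *wago-1*, *rsd-2* and wild-type day 1 adults at 20°C, and mRNA of *simr-1* and wild-type at generation 1 and 25°C (3 libraries each). The labels do not say whether replicates came from separate cultures, so p-values measure only the spread between these libraries, which may be technical.

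In *C. elegans*, primary small RNAs such as piRNAs and 26G-siRNAs recruit RNA-dependent RNA polymerases to target transcripts, and these polymerases make the abundant secondary 22G-siRNAs. For one class of 22G-siRNAs this happens in *Mutator* foci at the nuclear periphery, assembled on MUT-16, and the products are bound by WAGO-class Argonautes that silence their targets. Another class is made without MUT-16, is bound by the Argonaute CSR-1 and maps to most genes expressed in the germline. SIMR-1 is a Tudor domain protein of germ granules beside the *Mutator* foci. The comparison at generation 1 asks which small RNAs already differed in its absence after a single generation at the elevated temperature.

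The mutant libraries had 4942204 and 11429717 reads counted on genes, against 2835252 and 2868966 in wild-type. These were 62.7% and 62.1% of the reads mapped to the genome in *simr-1*, against 43.5% and 42.4% in wild-type. The difference of 19.5 percentage points had an exact permutation p of 0.33, the smallest that 2 against 2 libraries allow (two-sided). Levels are therefore given as reads per 1000000 reads mapped to the genome (RPM), while fold changes come from edgeR, which rescales the counted reads by the TMM method, and the 2 scales differ. A gene with the same RPM in both genotypes has a log2 fold change below 0 in edgeR. With genome-mapped reads as the library size, the median over all tested genes was 0.37 on the log2 scale instead of −0.10, a shift of 0.47. Small RNAs at *simr-1* itself (WBGene00015504, chromosome I, 5981778 to 5985869, WS258 coordinates as in the deposited tables) were at 26.8 and 28 RPM in *simr-1*, against 66.6 and 65.8 RPM in wild-type. Its mRNA was at 6.88, 7.80 and 8.62 CPM (TMM-normalized counts per 1000000) in *simr-1*, against 62.6, 67.2 and 62.8 CPM in wild-type. Both readouts of the mutated gene were thus lower in every library labelled *simr-1*.

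Genes were called from edgeR's quasi-likelihood test at a Benjamini-Hochberg adjusted p no higher than 0.05, a difference of 2-fold or more and a mean of 10 RPM or more in one of the genotypes. Of 14341 genes tested, 1316 (9.18%) were depleted of small RNAs in *simr-1* and 2512 (17.5%) were enriched. At each of the 3828 called genes the *simr-1* libraries did not overlap the wild-type libraries, as was the case at 11969 of all 14341 genes. The split depended on the scaling: 65.6% of calls were enriched genes here, 79.7% (1032 depleted and 4046 enriched) with genome-mapped reads as library size, and 50.0% (1516 and 1513) with edgeR's own filter on low counts. The depleted genes changed more, with a median 4.30-fold lower level, and 708 of them were at least 4-fold and 139 at least 16-fold lower. The enriched genes were a median 2.43-fold higher, and 96 were at least 4-fold higher. Reads were counted without strand, so small RNAs of genes that overlap others cannot be told apart from theirs, which holds below for Y110A2AL.1, *grd-16*, C15C6.1, *eri-6*, *eri-1*, Y37E11B.2, W05H12.2, K02E2.6, *linc-22*, *moc-2*, *tns-1*, *glct-6*, *egg-6*, *his-24*, *prg-1*, *sago-2*, *mut-16*, *alg-2*, *vit-3*, *vit-4* and *vit-6*.

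**Figure D1:**
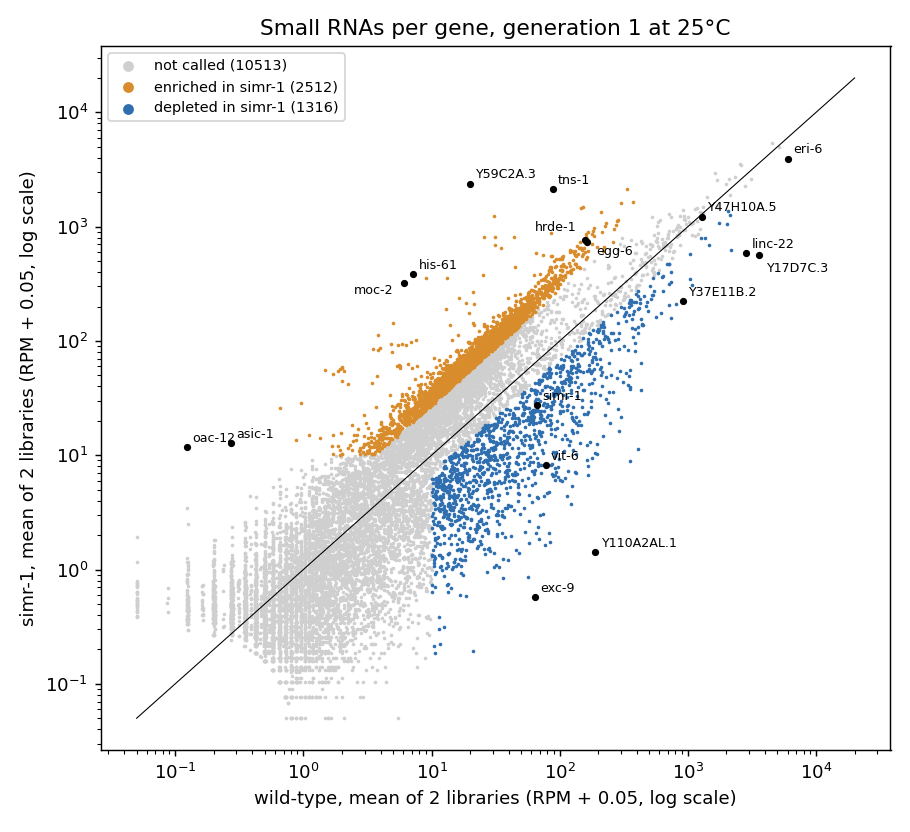
Mean small RNA level of each gene in simr-1 (vertical axis) against wild-type (horizontal axis), in RPM on log scales after 0.05 was added, for 14341 genes with 2 libraries per genotype at generation 1 and 25°C. The 1316 depleted genes spread far below the line of equal levels, most of the 2512 enriched genes form a narrow band a little above it, and a few such as Y59C2A.3 and his-61 stand well above that band.

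Most genes that lost small RNAs were on a list of MUT-16-dependent genes. MUT-16-dependent genes were defined in the single libraries, which share no library with this comparison, as genes whose wild-type level reached 10 RPM and whose level in *mut-16* was no more than 50% of it. Of 1899 such genes tested (1905 in the list), 942 were depleted, 47 were enriched and 910 were not called, with a median log2 fold change of −1.43. Of the 1316 depleted genes, 942 (71.6%) were on this list, 57 were on the list of genes with at least 10 RPM that did not meet the limit in *mut-16* (called MUT-16-independent below), and 317 were on neither. Of the 6987 genes that reached 10 RPM in the comparison, 1572 were on the MUT-16-dependent list. Each list rests on a single *mut-16* library. Summed over the MUT-16-dependent list, small RNAs came to 221799 and 220651 RPM in *simr-1*, against 262983 and 257914 RPM in wild-type, a ratio of 0.849. The summed level thus differed less than the median gene, and 192 of the 1899 genes had a log2 fold change above 0.

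The list was also split by the single library of *wago-1*, which encodes an Argonaute that binds *Mutator*-dependent 22G-siRNAs. Of 835 tested genes that were no higher than 50% of wild-type in *wago-1* as well, 463 were depleted and 13 enriched (median −1.71). Of the 1064 others, 479 were depleted and 34 enriched (median −1.24). Both sublists had a share of depleted genes far above the 9.18% of all genes.

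The depleted genes were also looked up in single libraries at 20°C, where 999 of them had at least 10 RPM in wild-type. The single *simr-1* library had 578 of the 999 at least 2-fold lower than wild-type (median log2 ratio −1.18, after 0.5 RPM was added). The *wago-1* library had 463 (−0.88) and the *rsd-2* library 83 (−0.09). Of 2408 enriched genes with at least 10 RPM there, only 37, 30 and 1 were at least 2-fold higher in the *simr-1*, *wago-1* and *rsd-2* libraries. Their median log2 ratios were 0.40, 0.54 and 0.19, and 4, 14 and 2 of them were at least 2-fold lower. Most genes enriched at generation 1 were thus not 2-fold higher in the single *simr-1* library at 20°C. The shares over all genes were not computed. RSD-2 is a factor of the response to low doses of double-stranded RNA. Each of these strains had 1 library, so these differences have no replicate check.

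By annotation (Ensembl, WBcel235), 924 depleted genes were protein-coding, 136 were pseudogenes, 116 were tRNA genes, 93 other noncoding RNA genes and 21 lincRNA genes. Of all 14341 genes tested, 9.18% were depleted and 17.5% enriched, and 6987 reached 10 RPM. Pseudogenes were depleted in 136 of 785 tested (17.3%), of which 298 reached 10 RPM, and 35 were enriched (4.46%). Of 71 lincRNA genes tested 32 reached 10 RPM, 21 were depleted (29.6%) and the remaining 50 were not called. Of the 609 tRNA genes tested, 153 reached 10 RPM, 116 were depleted (19.05%) and 493 were not called. tRNA genes are present in near-identical copies, among which single alignments are divided without a basis in the sequence. The X chromosome, on which germline expression is low, held 250 depleted and 57 enriched genes of 1793 tested (13.9% and 3.18%). Of these 1793 genes, 442 reached 10 RPM.

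Among called genes, the largest fall on the log2 scale of edgeR was at Y110A2AL.1 (WBGene00022438, chromosome II, 2875101 to 2876618), which encodes a protein with an Smr domain. It had 1.65 and 1.09 RPM in *simr-1*, against 188 and 191 RPM in wild-type, a log2 fold change of −7.69 ± 0.12 (edgeR, SE; adjusted p = 6.5e-12). Its level was under 7 RPM in every *simr-1* library of the other conditions as well, and above 230 RPM in every wild-type library there. The annotation places a noncoding RNA on the other strand of this gene, and the counting did not use strand.

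Other large falls were at H39E20.1 (chromosome X, 1396353 to 1396551), annotated as a transposase gene, with 0.127 and 0.163 RPM in *simr-1*, against 19.9 and 22.3 RPM in wild-type. *exc-9*, which encodes a cysteine-rich protein needed for the shape of the excretory canals, had 0.508 and 0.543 RPM in *simr-1*, against 64.4 and 64.2 RPM in wild-type. *grd-16*, of the ground-like family related to hedgehog signals, had 0.762 and 0.869 RPM in *simr-1*, against 59.7 and 53.4 RPM in wild-type. These 3 genes were all but emptied of small RNAs in the mutant, with log2 fold changes of −7.46, −7.35 and −6.52. The uncharacterized gene C15C6.1 (−6.43) and the C-type lectin gene *clec-238* (−6.31) completed the 6 largest falls of called genes by edgeR.

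By the difference in RPM, 3 noncoding genes and *eri-6* had the largest losses among called genes. The pseudogene Y17D7C.3 (chromosome V, 18720589 to 18723771) had 575 and 544 RPM in *simr-1*, against 3671 and 3463 RPM in wild-type (log2 fold change −3.15 ± 0.04). The long noncoding RNA gene *linc-22* (chromosome X, 9069138 to 9073735) had 616 and 559 RPM in *simr-1*, against 2864 and 2812 RPM in wild-type (−2.75 ± 0.04). F39E9.10, also annotated as a lincRNA gene, had 623 and 634 RPM in *simr-1*, against 2215 and 2144 RPM in wild-type (−2.27 ± 0.04). These 3 genes were ranked by the difference in RPM, so the distance between the genotypes follows from how they were chosen.

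The gene with the most small RNAs among those called, *eri-6* (chromosome I, 4457383 to 4469461), encodes a helicase of the ERGO-1 pathway. It had 3530 and 4351 RPM in *simr-1*, against 6215 and 5868 RPM in wild-type, a log2 fold change of −1.09 ± 0.08 (edgeR, adjusted p = 3.0e-07). This call was at the 2-fold limit: without *simr-1* replicate 1 the value was −0.97, and with genome-mapped reads as library size it was −0.62. Other genes lie on the opposite strand of *eri-6*, so its small RNAs cannot be told apart from theirs.

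Genes of the ERGO-1 pathway were depleted almost without exception. ERGO-1 is an Argonaute that binds 26G-siRNAs made by Dicer and the ERI proteins, and its targets, many of them pseudogenes and duplicated genes, receive abundant 22G-siRNAs. Of 15 such genes, listed from general knowledge, 14 were depleted (median log2 fold change −1.84). Their summed small RNAs came to 2706 and 2676 RPM in *simr-1*, against 6534 and 6210 RPM in wild-type. The remaining gene, E01G4.7, had 871 and 845 RPM in *simr-1*, against 1268 and 1147 RPM in wild-type, and missed the 2-fold limit at −0.97. It passed without *simr-1* replicate 1 (−1.01), without *simr-1* replicate 2 (−1.11) and without wild-type replicate 2 (−1.11). With genome-mapped reads as library size 4 of the 14 calls were lost (F52D2.6, K02E2.6, K06B9.6 and C44B11.6).

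The largest fall among these genes was at the pseudogene W05H12.2, with 27.7 and 25.5 RPM in *simr-1*, against 183 and 169 RPM in wild-type (−3.21 ± 0.07). Y37E11B.2 (chromosome IV, 3578415 to 3579531) had 237 and 210 RPM in *simr-1*, against 915 and 905 RPM in wild-type (−2.51 ± 0.05). F55C9.5 had 82.4 and 111 RPM in *simr-1*, against 410 and 358 RPM in wild-type (−2.44 ± 0.11). In each of these the *simr-1* libraries lay well below both wild-type libraries.

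The separate target of the Argonaute RDE-1, Y47H10A.5 (chromosome I, 12095777 to 12097987), which encodes a decapping nuclease, was not called. It had 1238 and 1196 RPM in *simr-1*, against 1299 and 1280 RPM in wild-type, with a log2 fold change of −0.56 ± 0.04 (edgeR, adjusted p = 1.0e-07). Its genotypes nearly met on the RPM scale (ratio 0.944), and most of the log2 value was the difference between the scales.

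Enriched genes were mostly genes whose small RNAs do not depend on MUT-16. Of the 2512 enriched genes, 2454 were protein-coding and 2361 (94.0%) were MUT-16-independent. The base is high, as 4700 of the 6987 genes that reached 10 RPM in this comparison were on that list. Of the 4784 MUT-16-independent genes, all tested, 2361 were enriched, 57 were depleted and 2366 were not called (median log2 fold change 0.99). Summed over that list, small RNAs came to 380844 and 375346 RPM in *simr-1*, against 142323 and 139727 RPM in wild-type, a ratio of 2.68. Whether wild-type had a smaller share of germ cells than *simr-1*, less small RNA per germ cell or another difference cannot be told apart here.

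The genes of the small RNA pathways themselves were among those enriched. Their shares are to be read beside the 17.5% of all genes and the 49.4% of MUT-16-independent genes that were enriched. Of 10 secondary siRNA Argonaute genes, 6 were enriched and 4 not called (enriched were *wago-1*, *wago-4*, *ppw-1*, *ppw-2*, *sago-2* and *hrde-1*). *hrde-1* encodes the nuclear Argonaute that carries silencing between generations, and it had 776 and 756 RPM in *simr-1*, against 158 and 158 RPM in wild-type (1.8 ± 0.05). Of 9 primary and germline Argonaute genes 4 were enriched: *csr-1* (588 and 571 RPM in *simr-1*, against 142 and 136 RPM in wild-type), *prg-1*, *rde-1* and *alg-2*. Of 11 *Mutator* complex genes 5 were enriched: the exonuclease gene *mut-7* (1.33), the helicase gene *mut-14* (1.25), the scaffold gene *mut-16* (1.05), *rde-2* (1.29) and the nuclease gene *nyn-1* (1.17). The calls of the last and of *mut-16* rest on single libraries: without *simr-1* replicate 2 their values were 0.99 and 0.91, and *mut-16* was also under the limit without wild-type replicate 1 (0.99) or 2 (0.95).

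Of 6 RNA-dependent RNA polymerase and cofactor genes, *ego-1* (1.38), *rrf-3* (1.26) and *drh-3* (1.22) were enriched. Of 14 nuclear RNAi and heterochromatin genes 7 were enriched, among them the histone methyltransferase genes *met-2* (1.54) and *mes-4* (1.24). Of 11 ERI and Dicer genes, *dcr-1* (1.25), *rde-4* (1.45), *rrf-3* and *eri-1* (1.02) were enriched, while *eri-6* was depleted. The *eri-1* call was lost without any one of the 4 libraries (0.91 to 0.96).

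Of 17 genes of SIMR, P and Z granules 11 were enriched, led by *glh-4*, a germline helicase gene (1.72), and *znfx-1*, which encodes the Z granule helicase (1.57). Small RNAs at *pgl-1*, a P granule scaffold gene, were at 309 and 304 RPM in *simr-1*, against 80.7 and 82.5 RPM in wild-type (1.43 ± 0.06). The call of *rsd-6* (1.03) was lost without *simr-1* replicate 1 (0.94), *simr-1* replicate 2 (0.96) or wild-type replicate 2 (0.78). Besides *simr-1*, *parn-1* went the other way, with 256 and 240 RPM in *simr-1*, against 479 and 436 RPM in wild-type (−1.36 ± 0.05). With genome-mapped reads as library size *parn-1* did not reach 2-fold (−0.89). PARN-1 trims the 3' ends of piRNAs.

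**Figure D2:**
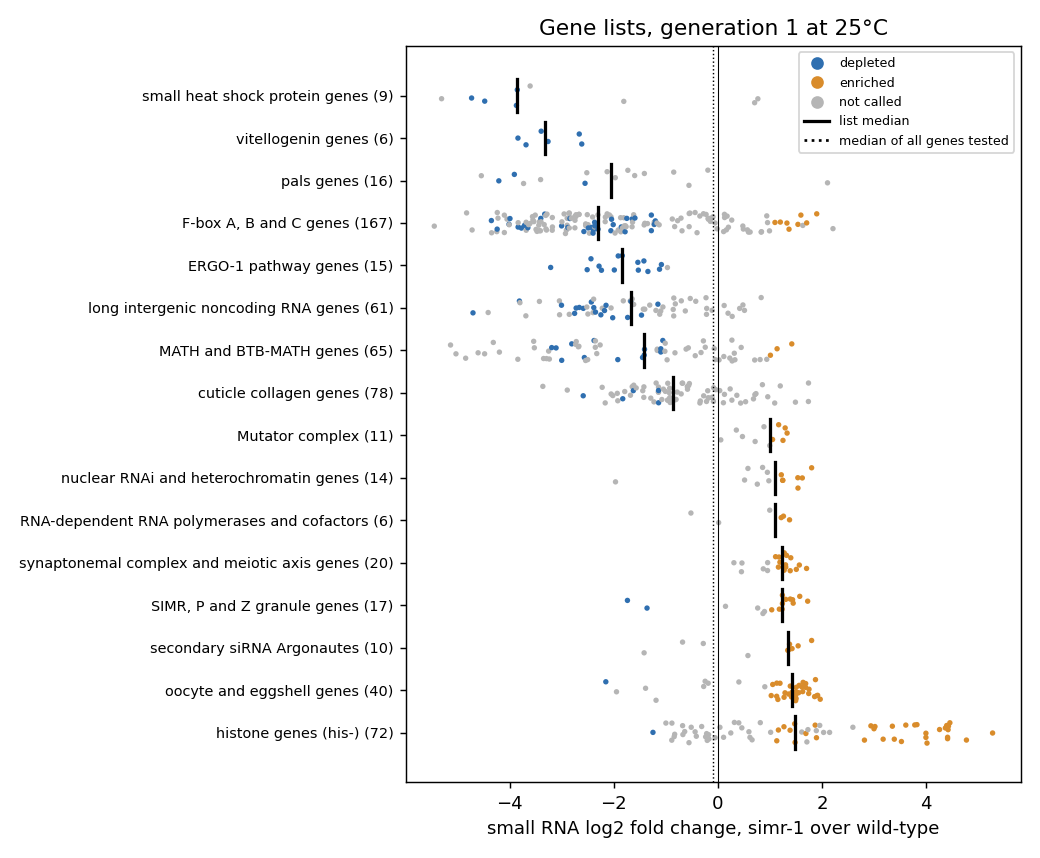
Small RNA log2 fold change (simr-1 over wild-type, generation 1 at 25°C) of every tested gene in 16 gene lists, with the number of genes in parentheses, coloured by call, with the list median as a bar and the median of all genes (−0.10) as a dotted line. Heat shock, vitellogenin, ERGO-1 and divergent family genes lie to the left, and most germline genes lie between 1 and 2, with some histone genes beyond 4.

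Genes for oogenesis and meiosis were enriched in similar measure. Of 40 tested oocyte and eggshell genes (44 in the list) 31 were enriched and 1 depleted (median 1.42). *egg-6*, which encodes a leucine-rich repeat protein, had 727 and 736 RPM in *simr-1*, against 163 and 164 RPM in wild-type (1.68 ± 0.05), and *egg-5*, a pseudophosphatase gene of the egg activation complex, had 539 and 548 RPM in *simr-1*, against 104 and 105 RPM in wild-type (1.90 ± 0.05). Of 20 synaptonemal complex and meiotic axis genes 14 were enriched and 6 not called, with the axis genes *htp-1* and *htp-3* at 1.30 and 1.39. Of 76 cytoplasmic ribosomal protein genes 29 were enriched and 1 depleted (median 0.89). The shares were 77.5%, 70.0% and 38.2%, beside 17.5% of all genes and 49.4% of MUT-16-independent genes.

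Most genes on the lists of sperm and somatic genes were under the 10 RPM that a call requires. Of 37 tested sperm genes other than major sperm protein genes 7 reached 10 RPM, of which 1 was enriched (*spe-39*) and 1 depleted, and the 10 tested major sperm protein genes (31 in the list) were all under 10 RPM. Of 78 tested cuticle collagen genes 11 reached 10 RPM, of which 5 were depleted and 6 not called, and the 6 tested body wall muscle genes were under 10 RPM. The depleted shares were 2.70% of these other sperm genes and 6.41% of the collagen genes tested, below the 9.18% of all genes. As 6987 of all 14341 genes tested reached 10 RPM, these low shares can not be read apart from coverage. The call of *spe-39* (1.13) was lost without wild-type replicate 2 (0.99).

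Levels in the other conditions show how the wild-type libraries entered these calls. Summed small RNAs of the 2512 enriched genes came to 286840 and 282897 RPM in *simr-1* at generation 1, against 73800 and 73235 RPM in wild-type. In *simr-1* the sum was 307170 and 308520 RPM at 20°C, and 147624 to 297041 RPM at generations 2, 7 and 10. In wild-type it was 251487 and 250219 RPM at 20°C and 72842 and 62543 RPM after another generation. Later it was 216138 and 212296 RPM (generation 7), then 144025 and 156973 RPM (generation 10). The *simr-1* libraries of generation 1 were thus near the levels of both genotypes at 20°C, and the wild-type libraries of generation 1 were far below them. The share of mapped reads counted on genes followed the same order in wild-type, with 66.7% and 66.0% at 20°C, 43.2% and 41.1% in generation 2, 64.6% and 62.8% in generation 7, and 58.7% and 60.4% in generation 10.

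Against wild-type of generation 2 in place of generation 1, a comparison added after the data were seen, 2828 genes were enriched in the *simr-1* libraries of generation 1, of which 2356 were among the 2512. Against wild-type of generation 7 only 149 were enriched (108 shared), and against generation 10 only 204 (103 shared). The 2512 genes then had a median log2 fold change of 1.40, 0.19 and 0.58 against generations 2, 7 and 10. Animals of other generations were grown at other times, so these comparisons are not matched.

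The depleted genes moved less with the choice of wild-type. Their summed small RNAs came to 52585 and 52365 RPM in *simr-1* at generation 1, against 139235 and 132966 RPM in wild-type, and wild-type libraries of the other conditions lay between 126230 and 154117 RPM. Against wild-type of generations 2, 7 and 10, 1381, 1076 and 1618 genes were depleted, of which 1163, 761 and 812 were among the 1316, and the median of the 1316 was −2.27, −1.50 and −1.90. The largest part of the depleted list was therefore called against each wild-type set.

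**Figure D3:**
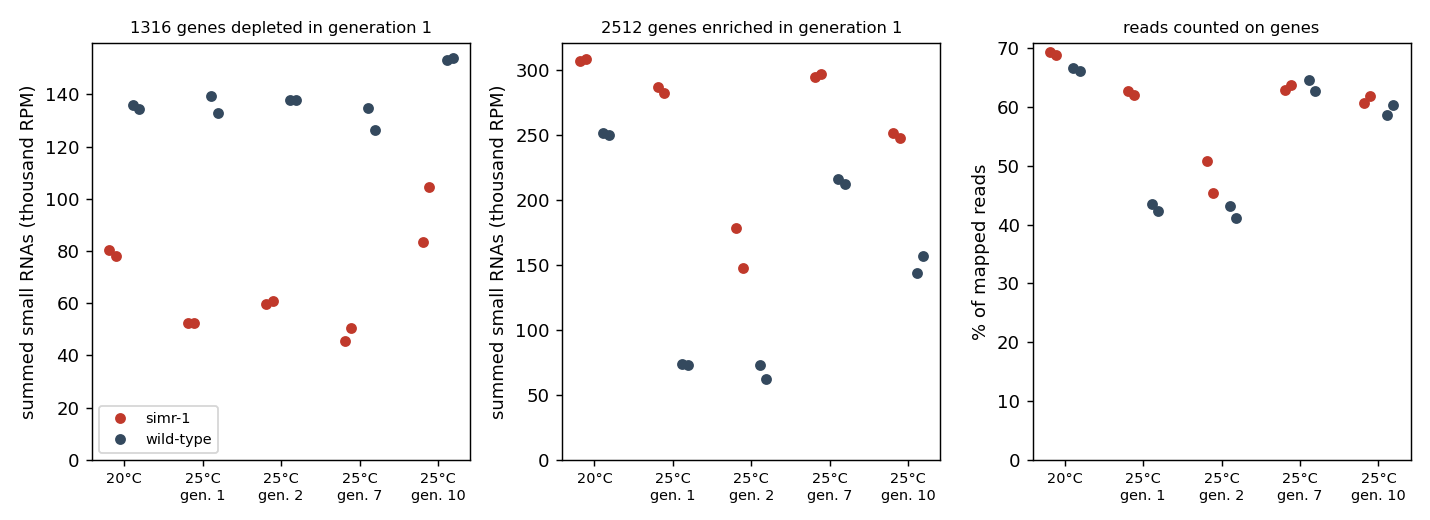
Summed small RNAs (in units of 1000 RPM) of the 1316 genes depleted (left) and the 2512 genes enriched (middle) at generation 1, and the percentage of mapped reads counted on genes (right), in each of 20 libraries, with 2 simr-1 and 2 wild-type libraries per condition. Depleted genes are at about the same level in all wild-type libraries and lower in all simr-1 libraries, and enriched genes are low in wild-type at generations 1 and 2.

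mRNA markers of generation 1 also differed between the genotypes. The 44 oocyte and eggshell genes together had 25727, 24922 and 27044 CPM in *simr-1*, against 8272, 7983 and 7275 CPM in wild-type, a ratio of 3.30, and 28 of them were called higher and 2 lower. Body wall muscle genes had 2072 to 2451 CPM in *simr-1*, against 3858 to 4613 CPM in wild-type, and collagen genes 7113 to 10464 CPM in *simr-1*, against 3707 to 4459 CPM in wild-type. Of 113 collagen genes tested 43 were nonetheless lower and 20 higher (median log2 fold change −0.56), so the sum and the median differ in direction. Major sperm protein genes had 36.3 to 51.2 CPM in *simr-1*, against 37.5 to 41.5 CPM in wild-type. The other sperm genes had 295 to 297 CPM in *simr-1*, against 227 to 242 CPM in wild-type. Of 39 of these tested, 8 were lower and 2 higher. Of 20 synaptonemal complex and meiotic axis genes, 0 were called at mRNA (median log2 fold change 0.38). The part of this difference in the enriched small RNAs was not tested.

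Histone genes stood apart from the other enriched genes in size. Of 72 genes named his- 33 were enriched and 1 was depleted, and the enriched ones ranged from 1.13 to 5.27 on the log2 scale. Of the 24 genes enriched at least 16-fold, 11 were histone genes. *his-61* (chromosome IV, 7485733 to 7486254), a histone H2A gene, had 383 and 386 RPM in *simr-1*, against 5.83 and 8.42 RPM in wild-type (5.27 ± 0.10, edgeR, adjusted p = 1.9e-11). The linker histone gene *his-24* had 965 and 1015 RPM in *simr-1*, against 834 and 821 RPM in wild-type, and was not called (−0.22, and 0.26 with genome-mapped reads as library size). Core histone genes are near-identical copies, so how reads were divided among them is uncertain.

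Outside the histones, large rises were found at single genes. Y59C2A.3 (chromosome II, 2215476 to 2219921), whose product is annotated as trichohyalin, had 2354 and 2413 RPM in *simr-1*, against 17.6 and 22 RPM in wild-type (6.43 ± 0.08). *moc-2*, a gene of molybdenum cofactor synthesis, had 320 and 320 RPM in *simr-1*, against 6.21 and 5.98 RPM in wild-type (5.25 ± 0.08), and it overlaps a gene on the other strand. *tns-1*, the tensin gene, had 2104 and 2138 RPM in *simr-1*, against 92.3 and 83.9 RPM in wild-type (4.11 ± 0.05). All 3 genes were in *simr-1* far above the median level of MUT-16-dependent genes, 17.4 and 16.2 RPM in *simr-1* and 36.4 and 35.1 RPM in wild-type. For Y59C2A.3 and *tns-1*, which were named for their gain in RPM, this follows from how they were chosen.

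For the genes that were nearly empty in wild-type the ratio has a wide counting interval. The acyltransferase gene *oac-12* had 311 reads in *simr-1* in all and 1 read in wild-type, a ratio of 157 in RPM (95% exact interval 28 to 6231, for counting error only). *asic-1*, a gene of the degenerin channel family, had 335 reads in *simr-1* and 3 reads in wild-type, a ratio of 56.5 (19.2 to 275). The noncoding RNA gene ZK131.13 had 25.0 and 27.2 RPM in *simr-1*, against 0.614 and 0.591 RPM in wild-type. It lies on chromosome II (13822985 to 13823034), near the histone H3 gene *his-42* (13828287 to 13828697).

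Among gene families, all 6 vitellogenin genes were depleted, beside 9.18% of all genes. How small RNA or mRNA reads were divided among similar members of this family was not examined, so the 6 calls may not be separate. Vitellogenins are yolk proteins made in the intestine, and small RNAs at their genes reached 10 RPM in wild-type only. Summed over the family they came to 26.6 and 28.3 RPM in *simr-1*, against 195 and 187 RPM in wild-type. *vit-6* had 7.36 and 8.86 RPM in *simr-1*, against 79.5 and 75.9 RPM in wild-type (−3.68 ± 0.10), and the others ranged from −3.84 (*vit-3*) to −2.61 (*vit-1*).

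Small heat shock protein genes, which respond to heat, showed an even larger median (−3.85, 9 of 12 genes tested). Of these, 4 were depleted (44.4% of those tested), and they reached 10 RPM in wild-type only. *hsp-16.48* had 2.54 and 2.12 RPM in *simr-1*, against 21.9 and 25.1 RPM in wild-type (−3.85 ± 0.16), and its paralog *hsp-16.49*, with 2.66 and 2.23 RPM in *simr-1*, against 26.1 and 24.1 RPM in wild-type, cannot be told apart from it by most reads. *hsp-16.1* and *hsp-16.11* form the other such pair (−4.48 and −4.73).

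In the divergent families of ubiquitin ligase adaptors, calls were depletions for the most part. The depleted shares were 19.8% of F-box and 20.0% of MATH and BTB-MATH genes tested, beside 9.18% of all genes. Of 167 tested F-box A, B and C genes (322 in the list) 57 reached 10 RPM, 33 were depleted and 8 enriched, and of 65 tested MATH and BTB-MATH genes 36 reached 10 RPM, 13 were depleted and 3 enriched. *bath-20* had 1073 and 1037 RPM in *simr-1*, against 2030 and 1996 RPM in wild-type (−1.41 ± 0.04), and *bath-45* had 1399 and 1340 RPM in *simr-1*, against 2115 and 1984 RPM in wild-type (−1.06 ± 0.04), but with genome-mapped reads as library size neither reached 2-fold (−0.93 and −0.58). The most covered F-box gene, *fbxa-218*, was not called, with 657 and 667 RPM in *simr-1*, against 658 and 632 RPM in wild-type (−0.44, and 0.04 with genome-mapped reads as library size).

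Of 16 tested pals genes 4 reached 10 RPM and 3 were depleted (18.75%). *pals-22*, a repressor of the intracellular pathogen response, had 44.3 and 40.5 RPM in *simr-1*, against 181 and 174 RPM in wild-type (−2.55 ± 0.06). Of 68 tested C-type lectin genes 5 were depleted (7.35%) and 3 enriched (4.41%), and only 9 reached the 10 RPM that a call requires. Both shares were below the 9.18% and 17.5% of all genes, but 6987 of all 14341 genes tested reached 10 RPM. The low shares can therefore not be read apart from the lower coverage of this family. Of 61 tested linc- genes 25 reached 10 RPM, 18 were depleted (29.5%) and 43 not called. *linc-29*, the most covered of them, was at 5478 and 5420 RPM in *simr-1*, against 4565 and 4527 RPM in wild-type, and was not called.

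**Figure D4:**
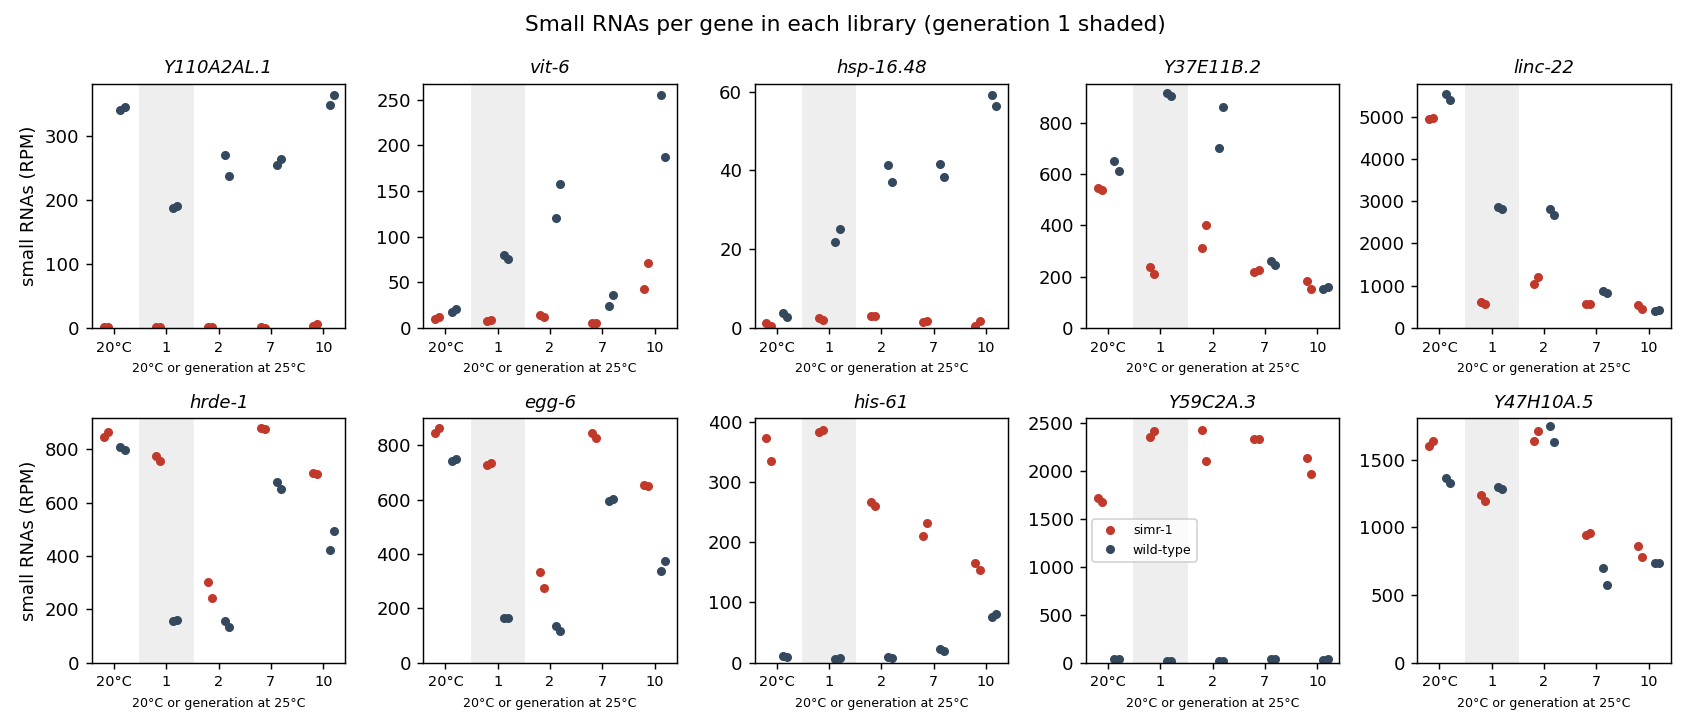
Small RNAs (RPM, linear axes from 0) at 10 genes in each of 20 libraries, by condition, with simr-1 points left of wild-type points and generation 1 shaded. Y110A2AL.1 and Y59C2A.3 differ between genotypes in every condition, hrde-1 and egg-6 are low in wild-type at generations 1 and 2, and Y37E11B.2 and linc-22 are lower in wild-type from generation 7 on than before.

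The mutant effect at generation 1 was next compared with that at 20°C in a single edgeR fit with a genotype by temperature interaction. Of 16976 genes tested, 1156 (6.81%) had a lower effect at 25°C by at least 2-fold and 1367 (8.05%) a higher one. Of the 1316 depleted genes 825 had a lower effect at 25°C, 2 a higher one and 489 were not called. Of the 2512 enriched genes 1289 had a higher effect at 25°C, 20 a lower one and 1203 were not called. The 1367 and 1289 include the wild-type levels of generation 1 described above.

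All 15 ERGO-1 pathway genes had a lower effect at 25°C (median interaction −1.58), and only 3 were called depleted at 20°C. Y37E11B.2 had 547 and 539 RPM in *simr-1* at 20°C, against 651 and 610 RPM in wild-type, a log2 fold change of −0.30 there and an interaction of −2.34. *linc-22* had 4938 and 4965 RPM in *simr-1* at 20°C, against 5523 and 5387 RPM in wild-type (−0.22), and an interaction of −2.66. The 6 vitellogenin genes and 4 small heat shock protein genes also had lower effects at 25°C. In wild-type, small RNAs at *vit-6* were at 17.5 and 20.3 RPM at 20°C, so that the difference from generation 1 lay mainly in wild-type.

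The largest interactions came from genes with few reads in one group. *pud-2.2* had 0.127 and 0.543 RPM in *simr-1* at generation 1, against 11.2 and 11.5 RPM in wild-type, and at 20°C its wild-type libraries had no read (interaction −7.94 ± 2.45, adjusted p = 0.013). The pseudogene Y102A5C.7 had no read in *simr-1* at generation 1, against 4.76 and 6.05 RPM in wild-type, at least 47.5-fold lower at a floor of 3 reads over both libraries (interaction −4.88 ± 1.05). The glucuronosyltransferase gene *glct-6* had 0.508 and 0.598 RPM in *simr-1*, against 15.6 and 17.4 RPM in wild-type, and a smaller effect at 20°C (interaction −4.48 ± 0.38).

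In the other direction *oac-12* had 15.7 and 16.6 RPM in *simr-1* at 20°C, against 4.17 and 3.45 RPM in wild-type (interaction 4.55 ± 0.67). The histone H3 gene *his-42* had 53.7 and 54.4 RPM in *simr-1* at generation 1, against 1.84 and 2.21 RPM in wild-type, with a smaller rise at 20°C (interaction 2.72 ± 0.25). The F-box gene F34D6.1 was lost from *simr-1* at 20°C (0.712 and 1.29 RPM, against 11 and 12.4 RPM in wild-type) and had under 1 RPM in all 4 libraries of generation 1, which gave an interaction of 3.06 ± 0.98 without a rise at 25°C.

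Calls at generation 1 were then followed through the other conditions, each with its own *simr-1* and wild-type libraries. At 20°C 856 genes (5.64%) were depleted and 246 (1.62%) enriched. Generation 2 had 1266 depleted (8.12%) and 279 enriched genes (1.79%), generation 7 had 1210 (8.06%) and 137 (0.912%), and generation 10 had 1670 (12.4%) and 167 (1.24%). Far fewer genes were thus enriched in each of these than in generation 1, although effects were compared by a test only with 20°C. Of the depleted genes of generation 1, 595 of 1314 tested were also depleted at 20°C, 1065 of 1316 in generation 2, 824 of 1316 in generation 7 and 843 of 1314 in generation 10. Of the enriched genes, 120, 248, 89 and 71 were also enriched at 20°C and at generations 2, 7 and 10.

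In all 5 conditions 356 genes were called depleted and 56 enriched. At generation 1 and in no other condition, 117 were called depleted and 2237 enriched. A gene not called elsewhere may still have shifted there. Of the 2512 enriched genes, 2480 had a log2 fold change above 0 in generation 2 (median 0.66) and 2354 in generation 7 (0.25). In generation 10 it was 2416 of 2510 (0.59), and at 20°C 2102 of 2512 (0.15). The medians over all genes in these conditions lay between −0.08 and 0.02. The 56 genes enriched in all 5 conditions include 20 histone genes, Y59C2A.3, *tns-1*, *moc-2* and ZK131.13. Of the 36 that are not named his-, 2 lay within 2000 bases of a histone gene. Small RNAs at Y59C2A.3 were between 1678 and 2429 RPM in the *simr-1* libraries of the other conditions, against 13.2 to 42.0 RPM in wild-type. *hrde-1*, by contrast, had 848 and 863 RPM in *simr-1* at 20°C, against 810 and 798 RPM in wild-type, a log2 fold change of 0.01 there.

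Lastly, mRNA of the same genotypes and generation was set beside the small RNAs. Of 16267 genes tested for mRNA 3535 (21.7%) were lower in *simr-1* by at least 2-fold and 1298 (7.98%) higher. Of 970 depleted genes with tested mRNA 219 (22.6%) had lower and 157 (16.2%) higher mRNA (median log2 fold change −0.28). Of 2468 enriched genes 44 (1.78%) had lower and 301 (12%) higher mRNA (median 0.42). Of 8083 genes called in neither direction, 1315 (16.3%) had lower and 628 (7.77%) higher mRNA (median 0.00). Both shares of the depleted genes were thus above those of the uncalled genes, whereas the share with lower mRNA was close to the 21.7% of all genes.

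Single genes went in each direction. The mRNA of H39E20.1, which lost its small RNAs, was at 2.39, 1.61 and 2.84 CPM in *simr-1*, against 0.051, 0.000 and 0.117 CPM in wild-type. *grd-16* lost both, with mRNA at 0.000, 0.161 and 0.000 CPM in *simr-1*, against 0.818, 0.578 and 0.822 CPM in wild-type. Of 15 ERGO-1 pathway genes 6 had lower mRNA and 9 were not called. The mRNA of Y47H10A.5 was at 29.2, 37.1 and 38.8 CPM in *simr-1*, against 152, 146 and 152 CPM in wild-type (−2.10 ± 0.08), although its small RNAs were not called.

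Families differed in the relation of both readouts. Vitellogenin mRNA rose at *vit-1*, *vit-3* and *vit-4*, the last with 2825, 3421 and 3022 CPM in *simr-1*, against 328, 251 and 126 CPM in wild-type, whereas the family sum had a ratio of 1.00. Small heat shock protein mRNA fell at 10 of 11 genes, in sum to 150, 157 and 145 CPM in *simr-1*, against 660, 651 and 662 CPM in wild-type. Of 32 pals genes with tested mRNA 24 were lower and 8 not called. Among enriched genes, *hrde-1* mRNA was at 840, 881 and 814 CPM in *simr-1*, against 311, 297 and 280 CPM in wild-type (1.51 ± 0.07), and *egg-6* mRNA was at 532, 575 and 538 CPM in *simr-1*, against 164, 151 and 146 CPM in wild-type (1.84 ± 0.07).

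Genes that gained the most small RNAs by fold also went in each direction at the mRNA. *oac-12* mRNA was at 0.700, 0.321 and 0.723 CPM in *simr-1*, against 0.256, 0.0642 and 0.117 CPM in wild-type (1.93 ± 0.56), and *asic-1* mRNA was at 1.52, 1.69 and 1.84 CPM in *simr-1*, against 0.870, 0.321 and 0.940 CPM in wild-type (1.20 ± 0.32), so both were higher at low levels. Y59C2A.3 mRNA was at 9.27, 8.84 and 8.96 CPM in *simr-1*, against 41.7, 43.7 and 43.6 CPM in wild-type (−2.25 ± 0.09), and *moc-2* mRNA was at 5.13, 5.30 and 5.06 CPM in *simr-1*, against 12, 14.1 and 16 CPM in wild-type (−1.44 ± 0.13). *tns-1* mRNA was at 18.7, 19.3 and 18.6 CPM in *simr-1*, against 37, 37.1 and 33.8 CPM in wild-type, and did not reach 2-fold (−0.93 ± 0.08).

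**Figure D5:**
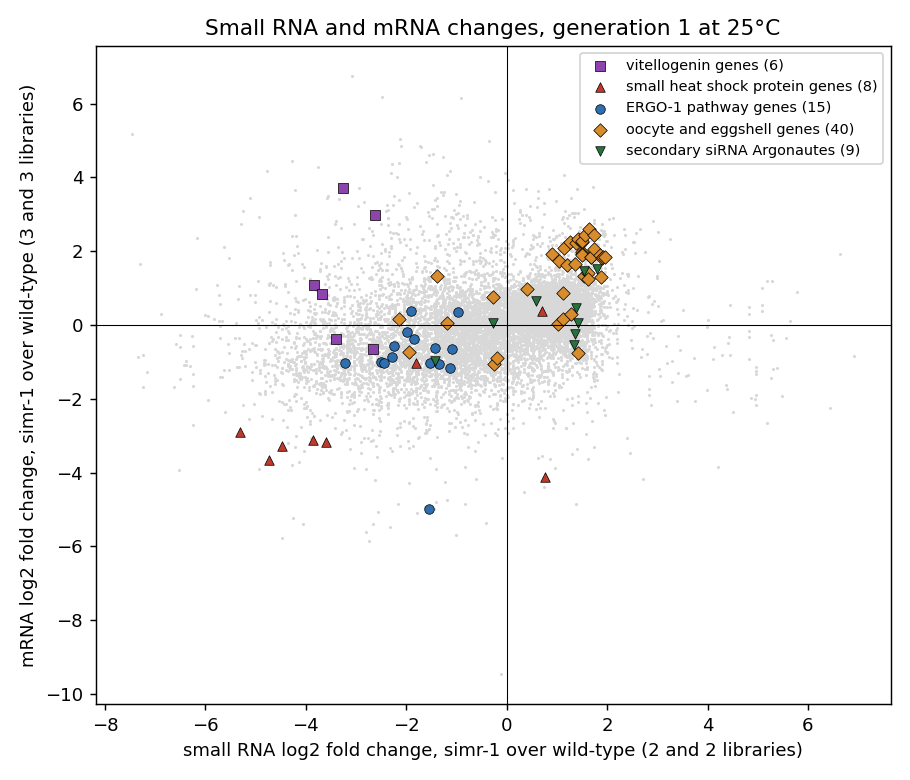
mRNA log2 fold change (vertical axis, 3 and 3 libraries) against small RNA log2 fold change (horizontal axis, 2 and 2 libraries), both simr-1 over wild-type at generation 1 and 25°C, with all genes tested in both in grey and 5 gene lists marked. Oocyte genes are mostly high in both, small heat shock protein genes mostly low in both, and vitellogenin genes low in small RNAs with mRNA on either side of 0.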

How the data were processed

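For the small RNAs, the authors used the FASTX-Toolkit (adapters, quality), then Bowtie2 against WS258 with 1 alignment per read. Their gene counting with featureCounts took exons, ignored strand and used gene models without miRNAs and piRNAs. The deposited values are expected counts, not normalized, since a read that overlaps several genes equally is divided between them. The deposited mRNA values are also expected counts; HISAT2 and Salmon are named, and which of them gave the values is not given in the sources used here. Counts were rounded and tested with edgeR 4.0.16 in R 4.3.3 (quasi-likelihood, TMM, no replicate block). Genes needed a sum of 10 or more counts in the libraries of a fit. The method was also run on simulated data. Of genes changed by 1 on the log2 scale 87% were recovered for small RNAs and 95% for mRNA, and of those changed by 2, 100% in both. The simulation used a fixed spread that was not estimated from these libraries, and changed only well covered genes. Recovery was scored by adjusted p and direction, without the 2-fold and 10 RPM limits, so it does not give the recovery of the calls made here. Genome-mapped reads came from the study's own sequencing statistics, in which 6517730 to 18408117 reads are listed for the 4 libraries. Groups came from the labels. DESeq2 1.42.0 and other scalings, filters, lists and left-out libraries were alternatives. Intervals and floors cover counting error only. Gene lists were taken from gene names and general knowledge.

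Named genes are *simr-1*, Y47H10A.5, the 6 largest falls and rises, the 4 largest losses and gains of RPM, the 3 largest interactions in each direction, the 2 most covered genes of each list and every called gene of lists under 20 genes. Not all of them are described. The falls, rises, losses and gains were ranked among called genes whose *simr-1* libraries did not overlap the wild-type libraries. The comparison, the lists and the alternatives were chosen with earlier results of these data known. Small RNAs of other strains were not analysed here beyond the single libraries named.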

Additional observations from a re-analysis of the deposited data

Results flagged for a closer look

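The effect of *simr-1* differed between 25°C (generation 1) and 20°C, by the interaction test in edgeR, at 1156 genes (6.81% of those tested) with a lower and 1367 (8.05%) with a higher effect at 25°C, the shares beside which the list counts are to be read. Lower effects at 25°C were found at 15 of 15 ERGO-1 pathway genes, 6 of 6 vitellogenin genes, 4 of 10 small heat shock protein genes and 18 of 84 genes named linc-. Higher effects at 25°C were found at 22 of 40 oocyte and eggshell genes, 13 of 20 synaptonemal complex and meiotic axis genes and 11 of 17 granule genes. The same held for 6 of 11 *Mutator* complex genes and 6 of 10 secondary siRNA Argonaute genes. These counts are also to be read beside 1306 of 4784 MUT-16-independent genes with a higher effect at 25°C. Of the single genes, *oac-12* (4.55), F34D6.1 (3.06) and *his-42* (2.72) had the largest higher effects, and *pud-2.2* (−7.94), Y102A5C.7 (−4.88) and *glct-6* (−4.48) the largest lower effects. In groups of 2 libraries no test for a library that stands apart was possible.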

How the results depend on the processing

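The count of depleted genes stayed within 1.5 times of 1316 except without the minimum of 10 RPM (3945). The count of enriched genes (2512) was 1513 with edgeR's own filter on low counts, 4046 with genome-mapped reads as library size, 4523 without the 2-fold limit, and 149 and 204 against wild-type of generations 7 and 10. Without 1 library it was 1919 to 2357 enriched and 1344 to 1448 depleted. The interaction (1156 lower, 1367 higher) gave 710 higher with edgeR's filter, and 614 lower and 3591 higher with genome-mapped reads, and without 1 library 1133 to 1172 lower and 1272 to 1417 higher. The median of MUT-16-dependent genes (−1.43) was −0.96 with genome-mapped reads, −1.50 with counted reads only, −1.64 with edgeR's filter, −1.36 with the replicated wild-type libraries as the base of the list, −1.72 at a limit of 25%, and −1.54 to −1.47 without 1 library. The difference in the share counted on genes was 17 points of the filtered reads. At mRNA no alternative moved a count over 1.5 times, and DESeq2 called 180 lower and 156 higher among depleted genes. With genome-mapped reads the sign turned at genes that were not called: *his-24* (0.26), *col-71* (0.28), *fbxa-218* (0.037), *fbxb-14* (0.33) and *linc-29* (0.26). DESeq2 gave 1318 depleted and 2500 enriched genes. The causes were not tested.

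Same-numbered libraries did not deviate together (correlation −0.03 for small RNAs, and −0.14, −0.07 and −0.04 for mRNA), so the numbers were not taken as pairs. With a replicate block there were 1318 depleted and 2502 enriched genes, 1162 lower and 1359 higher interactions, a median of −1.42 for MUT-16-dependent genes, and 215 lower and 156 higher mRNAs among depleted genes. Of the named genes, 9 lost and 2 gained their call with genome-mapped reads as library size, 3 lost and 1 gained it with counted reads only, and 4 lost and 1 gained it with all 20 libraries in a single fit. Filters on low counts were not run for single genes, and *msp-32* (also *msp-81*) could not be fitted without a wild-type replicate. The largest library had 11429717 and the smallest 2835252 counted reads.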
